A study of Homo sapiens with 58 samples.

Results

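The comparison set 3 libraries of HepG2 cells given a 70% ethanol extract of Zingiberis Rhizoma Recens (fresh ginger rhizome) at 500 µg/mL for 24 h, the high dose of that extract, against 3 libraries given the solvent DMSO (vehicle). These 6 libraries were taken by their labels from a series of 58 libraries in 24 groups. HepG2 is an established human cell line from a hepatocellular carcinoma, and it was the cell line of every group. The labels give the vehicle as 0.1% DMSO and the series text gives 2%. For comparison, 3 libraries of the same extract at 100 µg/mL (medium dose), 3 at 20 µg/mL (low dose) and 2 of a 70% ethanol extract of Zingiberis Rhizoma (dried ginger) at 500 µg/mL were used, all after 24 h. The protocol in the labels describes extraction of dried plants for the series as a whole and does not say how the fresh rhizome was handled.

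Fresh ginger rhizome is rich in gingerols, and drying turns part of them into shogaols, which react more readily with protein thiols. In liver cells, oxidants and electrophiles act through the transcription factor NRF2, low oxygen or iron loss acts through the factor HIF1A, and aromatic ligands act through the receptor AhR. Growth factor receptors signal through the kinase ERK to immediate early genes such as FOS and EGR1. HepG2 cells secrete many plasma proteins of the liver and are often used as a stand-in for hepatocytes, although they keep few of the drug-metabolizing cytochromes.

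The fresh ginger libraries at the high dose held 25708808 to 28669356 counts and the vehicle libraries 24077535 to 26409029. Genes of the mitochondrial DNA took 9.88 to 10.6% of the counts at the high dose and 8.67 to 9.53% in the vehicle. Replicate 1 of the high dose stood apart from the other replicates of its group, with a chi-square per gene of 8.48 and 9.46 against them, where those differed by 3.74. Vehicle replicates differed by 2.19 to 6.25 on the same measure. The labels do not say that replicates were separate cultures. The p-values rest on a spread between replicates that was estimated over all 24 groups, not from these 6 libraries alone, and it may be technical. The labels of vehicle and ginger libraries alike carry the name BatchC. Sample names of the vehicle carry a prefix of their own while both gingers share another, so prefix and treatment cannot be told apart against the vehicle. The summed level of 12 hepatocyte line genes, ALB and AFP among them, was 44400 to 44900 CPM (counts scaled to a common library size) in the vehicle and 41700 to 43100 CPM at the high dose. Summed markers of other cell types also differed, apart from those of lung, which overlapped. Fibroblast markers summed to 10.2 to 11.8 CPM in the vehicle and 20.7 to 24.2 CPM at the high dose, with COL1A2, DCN, LUM, FAP and POSTN at 0. Only 2 of these 10 were tested, of which PDGFRB rose and the other (-0.52 on the log2 scale) was not called. Leukocyte markers summed to 1290 to 1380 and 2010 to 2330 CPM, with PTPRC, CD3E, MS4A1 and TYROBP at 0. LYZ carried the sum, and of the 4 of 12 tested 1 was called higher, 1 lower and 2 were not called. Endothelium markers summed to 9.88 to 12 and 16.0 to 19.2 CPM, with KDR, ERG and EMCN at 0. Here 2 of 10 were tested, of which ESAM rose and the other (-0.26) was not called. Intestine markers summed to 510 to 522 and 413 to 426 CPM, with 3 of 10 tested and CDX1, SI and LCT at 0, and lung markers to 3.57 to 4.01 and 3.70 to 5.12 CPM, with 2 of 10 tested. The part of these markers and of the mitochondrial share in the results was not tested.

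Libraries with fresh ginger at the high dose differed from the vehicle libraries in many genes, most of them by less than 2-fold. Of 13945 genes tested, 6679 (47.9%) were called, meaning an adjusted p under 0.05 in edgeR's quasi-likelihood test with Benjamini-Hochberg adjustment. Of these, 3386 (24.3% of all tested) were higher with the extract and 3293 (23.6%) were lower, and the median log2 fold change over all genes was 0.003. A fold of at least 2 was reached by 482 called genes (3.46%), of which 340 rose and 142 fell. At 4-fold and above the balance was more uneven, with 45 genes higher and 8 lower. Among the called genes, 6179 had no overlap between the libraries of both groups. For the genes with the largest rises and falls this was a condition of choice, so it adds no support for them. Protein-coding genes were called higher in 3120 of 11998 and lower in 3042. Without replicate 1 of the high dose the test called 6183 genes, and 85.6% of the calls above were kept. All the libraries were bulk RNA, in which fewer cells of a kind and less RNA per cell cannot be told apart.

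**Figure D1:**
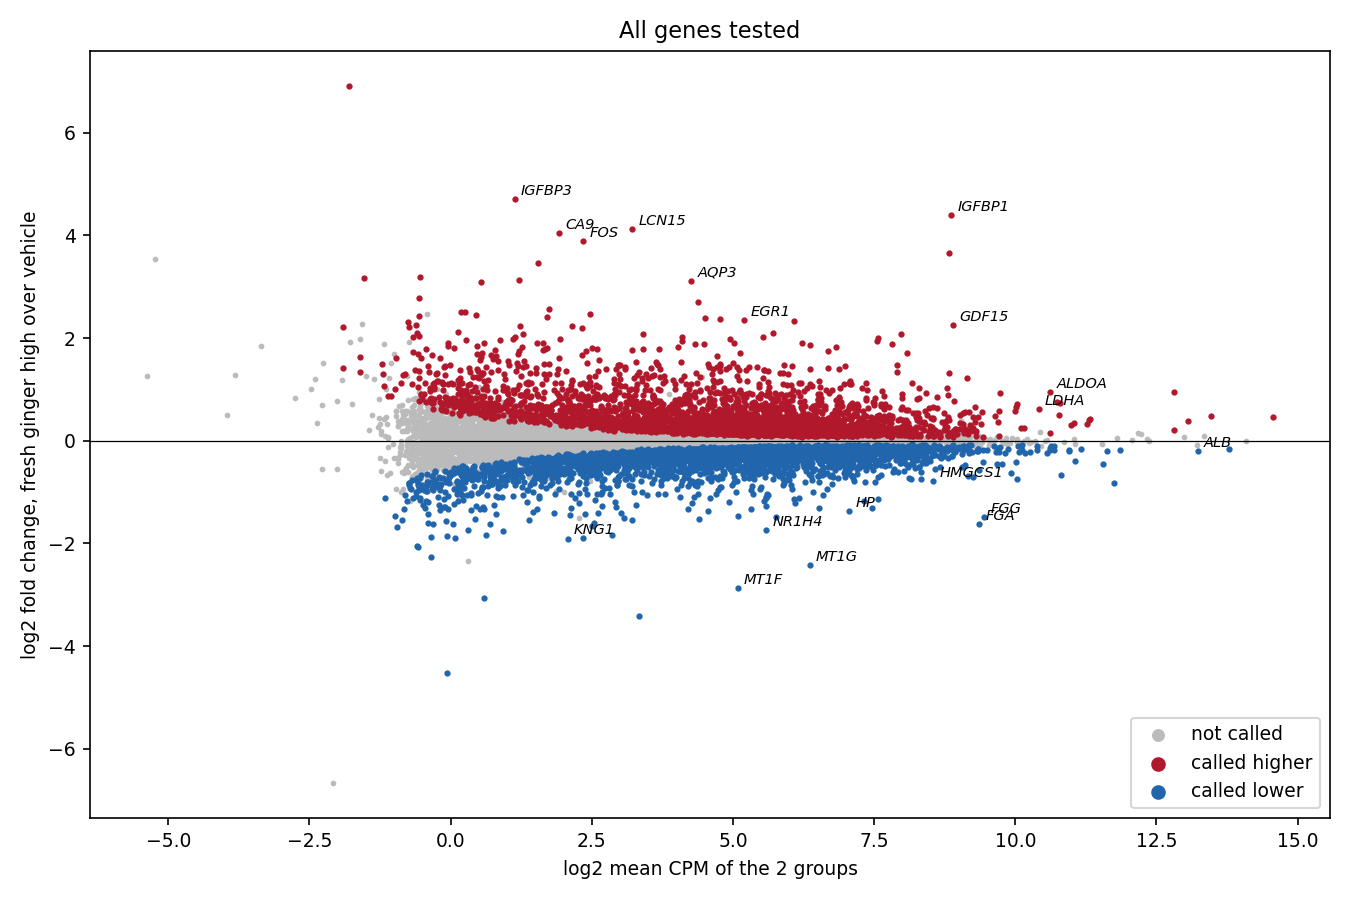
Each point is a gene, placed by its mean level (log2 CPM, x axis) and its log2 fold change of fresh ginger 500 µg/mL over vehicle (y axis), with called genes coloured. The upper part of the plot reaches further from 0 than the lower part, in the way that 340 genes rose and 142 fell by at least 2-fold.

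IGFBP1, a secreted protein that binds insulin-like growth factors and is made by the liver in fasting and low oxygen, rose most among genes of at least 5 CPM. Its level was 42.3, 38.4 and 46.0 CPM in the vehicle libraries and 918, 887 and 872 CPM at the high dose. The groups were far apart, and the fold was 21.2 (log2 fold change 4.40 ± 0.12 SE, edgeR adjusted p = 6.26e-31). At the low dose the mean was 78.4 CPM and at the medium dose 214 CPM, so each dose lay above the one before it. The neighbouring gene IGFBP3, which encodes another binding protein, rose from 0.165, 0.149 and 0.157 CPM to 4.61, 3.91 and 4.16 CPM. IGFBP1 lies at chr7:45888357-45893668 on the plus strand and IGFBP3 at chr7:45912245-45921874 on the minus strand (GRCh38, GENCODE 29). Of 13 measured genes of the insulin-like growth factor axis and insulin signalling, 9 rose and the other 4 were not called, with a median log2 fold change of 0.35. Replicate 1 of the high dose was the highest of its group in 10 of the 13. IGFBP6 (1.01 ± 0.16) and IGFBP4 (0.83 ± 0.05) were among those that rose. IGF2, the growth factor gene itself, had 1457, 1506 and 1523 CPM in the vehicle and 1749, 1419 and 1389 CPM at the high dose. These IGF2 groups overlap, since replicate 1 of the high dose was above every vehicle library and the other replicates below.

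The other genes with the largest rises had varied roles. LCN15, a lipocalin gene, had 0.741, 0.93 and 1.34 CPM in the vehicle and 19.4, 15.3 and 17.9 CPM at the high dose. Its log2 fold change was 4.12 ± 0.17. AQP3, a channel for water and glycerol, rose by 3.11 ± 0.09 on the log2 scale. CHST15, a sulfotransferase of glycosaminoglycans, rose from 8.78 ± 0.58 to 45.5 ± 1.2 CPM (SD, n = 3). RASD1 (2.7 ± 0.10), MMP3 (2.56 ± 0.19), RBM24 (2.48 ± 0.15), NPAS1 (2.42 ± 0.21) and PLAC8 (2.40 ± 0.07) were among the other rises outside the pathways described next.

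**Figure D2:**
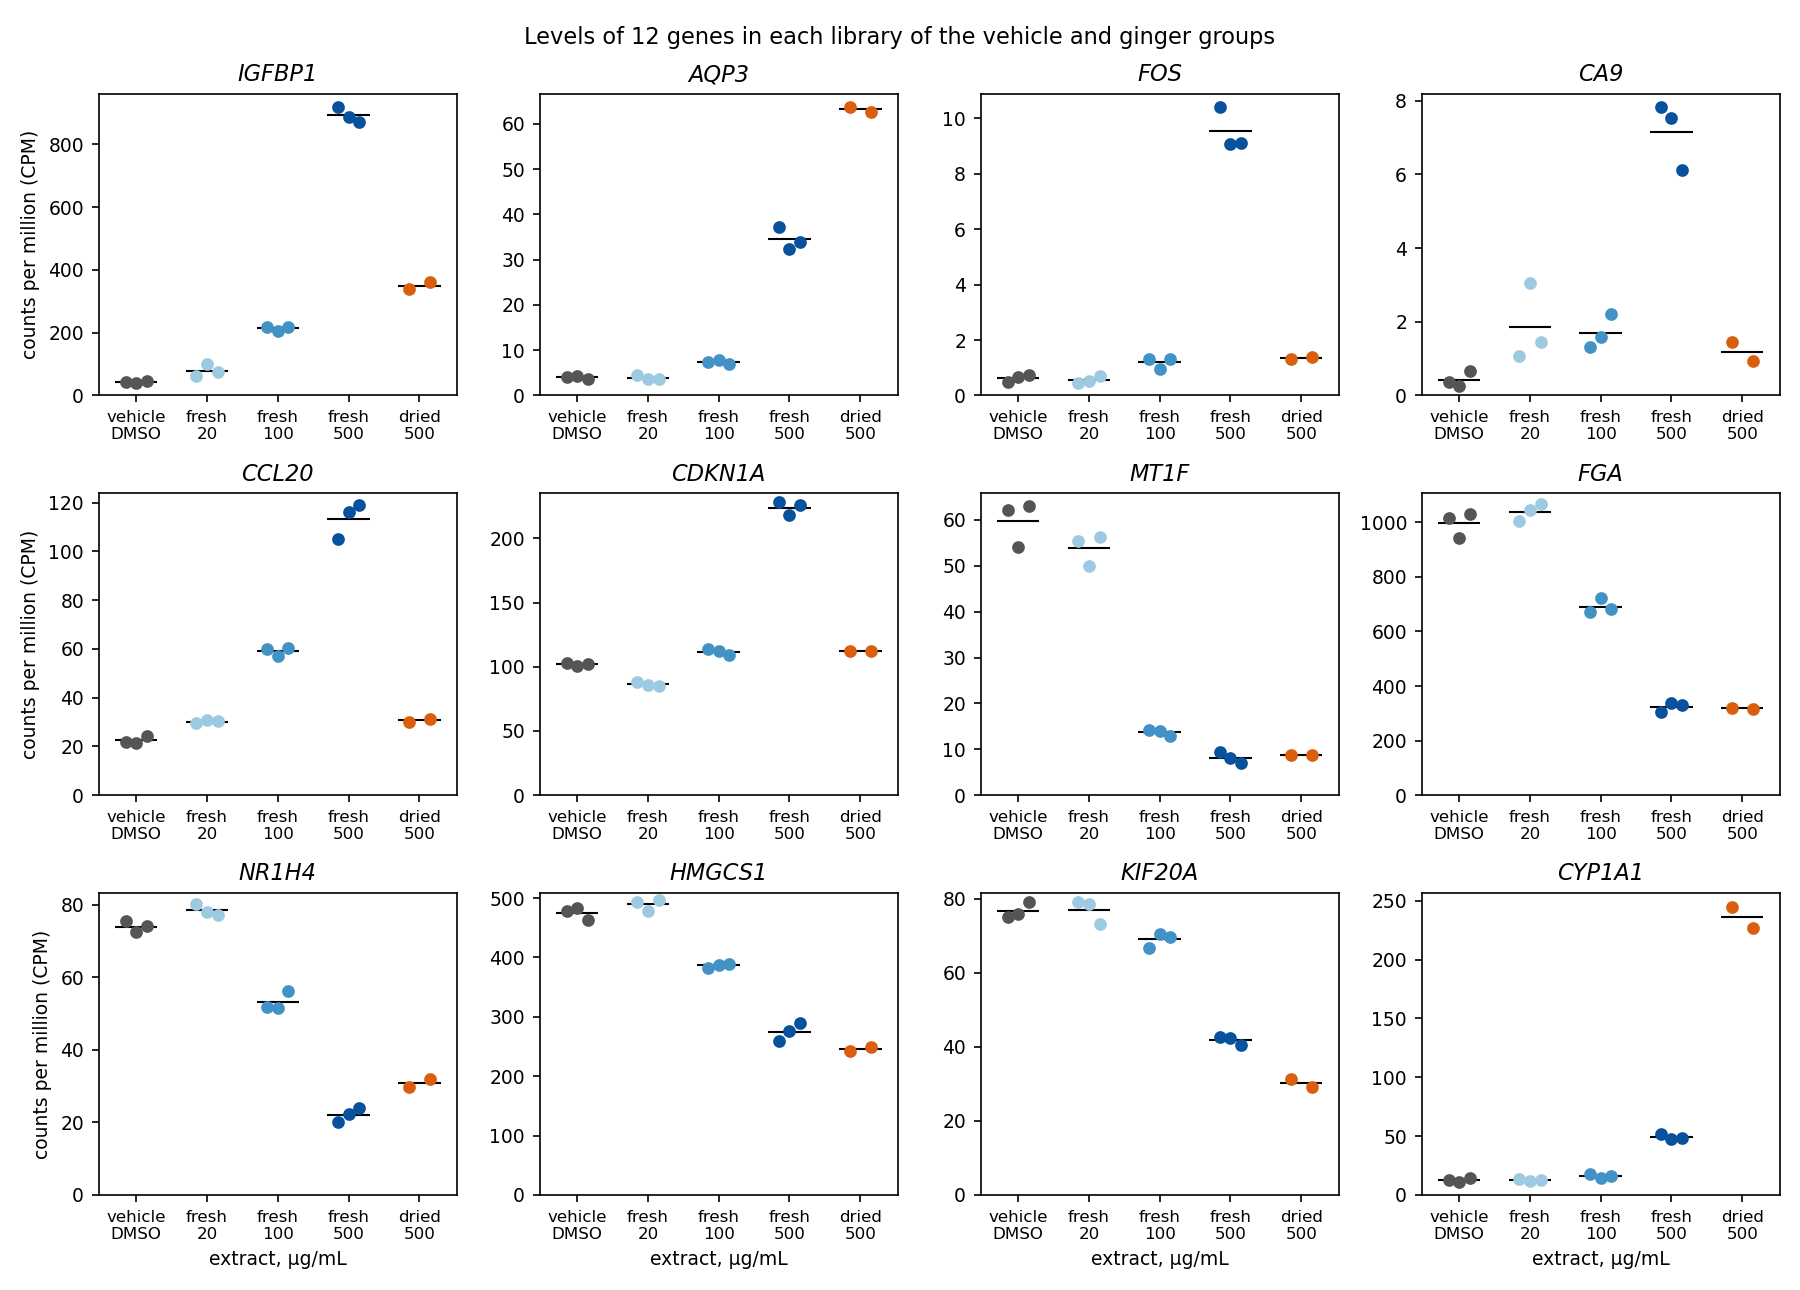
Levels of 12 genes (CPM, y axis of each panel) in vehicle, fresh ginger 20, 100 and 500 µg/mL and dried ginger 500 µg/mL, with a point for each library and a line at the group mean. IGFBP1 climbs with each dose to 872 to 918 CPM, MT1F falls between the low and the medium dose, and CYP1A1 is highest with dried ginger at 227 and 245 CPM.

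Genes that HIF1A is known to raise in low oxygen rose with the extract. Among 17 measured targets for pH control, vessels and secreted proteins, 14 rose and 3 were not called, with a median log2 fold change of 0.76. CA9, a carbonic anhydrase at the cell surface, was at 0.37, 0.26 and 0.668 CPM in the vehicle and at 7.82, 7.54 and 6.12 CPM at the high dose. Its log2 fold change was 4.04 ± 0.34 (edgeR adjusted p = 9.49e-14). PFKFB3, whose product speeds up glycolysis, rose by 1.95 ± 0.12, LOX, a collagen cross-linking oxidase, by 1.38 and CA12, another carbonic anhydrase, by 2.31 ± 0.32. VEGFA, the vessel growth factor, rose from 88.6, 86.7 and 91.9 CPM to 139, 135 and 132 CPM, a fold of 1.52. PLOD2 (0.91), P4HA1 (0.69) and P4HA2 (0.68), which hydroxylate collagen, and ADM (1.02) and ERO1A (0.76) rose as well. ANGPTL4 (0.23), EPO (0.05) and SLC16A1 (0.03) were not called, although SLC16A1 was called without replicate 1 of the high dose (0.09, edgeR adjusted p = 0.0261).

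The sensing arm moved in part. EGLN3, an oxygen-dependent hydroxylase that marks HIF1A for breakdown and is itself a HIF target, was at 0.947, 0.707 and 0.944 CPM in the vehicle and at 3.93, 2.74 and 3.61 CPM with the extract. EGLN1 rose by 0.68, and KDM4B (0.77) and KDM3A (0.65), histone demethylases, also rose. ANKRD37, a small HIF target, rose from 1.28, 1.04 and 1.69 CPM to 3.73, 3.63 and 3.69 CPM. VHL, whose product targets hydroxylated HIF for breakdown, fell by 0.14, and HIF1A itself had a log2 fold change of 0.03 that was not called. VHL was not called without replicate 1 of the high dose or vehicle replicate 2 (-0.11 in both, edgeR adjusted p = 0.0676 and 0.0658). In all, 7 of 11 measured genes of this group rose and 1 fell. Of 9 measured mitochondrial and stress targets 6 rose. NDRG1 rose from 31.7, 33.7 and 40.5 CPM to 137, 126 and 125 CPM. PDK1, a kinase of pyruvate dehydrogenase, went from 21.1, 22 and 27.6 CPM to 47.3, 56.4 and 54.4 CPM. For NDRG1 and PDK1 the groups were apart. BNIP3L (0.86) and BNIP3 (0.58), receptors for the removal of mitochondria, rose, while HILPDA (-0.06) and FAM162A (0.15) were not called. Without vehicle replicate 1 FAM162A was called (0.19, edgeR adjusted p = 0.0359).

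The promoters of CA9 and ANKRD37 are shown as examples of genes that rose and whose windows hold the core letters of the hypoxia response element, while the windows of PFKFB3 and EGLN3, which rose too, hold none. They run from 250 bases before to 50 bases after the start site, 5′ to 3′ on the strand of the gene, from RefSeq on GRCh38.p14. Capitals mark ACGTG on either strand, which reads CACGT on the strand shown when the match is on the other, so overlapping matches merge. CA9 (chr9:35673678-35673977, plus strand) has 1 match and ANKRD37 (chr4:185396591-185396890, plus strand) has 3.
CA9: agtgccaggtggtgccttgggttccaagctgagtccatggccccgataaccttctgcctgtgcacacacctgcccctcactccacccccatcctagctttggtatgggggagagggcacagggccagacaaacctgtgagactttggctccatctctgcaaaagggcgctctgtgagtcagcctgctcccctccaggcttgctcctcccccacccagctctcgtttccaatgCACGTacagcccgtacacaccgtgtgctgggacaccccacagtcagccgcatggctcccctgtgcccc
ANKRD37: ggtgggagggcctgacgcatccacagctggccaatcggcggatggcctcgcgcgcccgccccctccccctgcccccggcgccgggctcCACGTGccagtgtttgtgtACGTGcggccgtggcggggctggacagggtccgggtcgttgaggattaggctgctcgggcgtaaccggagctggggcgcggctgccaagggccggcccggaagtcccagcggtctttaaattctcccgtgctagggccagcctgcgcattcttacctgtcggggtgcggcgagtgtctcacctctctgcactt
The letters ACGTG stand in 21.6% of the 27305 promoter windows of that table. They stand in 6 of 14 windows of the pH and vessel list (42.9%), in 5 of 12 of the sensing list (41.7%), in 5 of 7 of the mitochondrial and stress list (71.4%) and in 9 of 20 of the glycolysis list (45.0%). Lists of other functions had shares near or above those of the pH and vessel, sensing and glycolysis lists. They were 57.9% for ribosome biogenesis, 9 of 18 windows for the circadian clock, 42.9% for YAP targets and 41.4% for cytosolic ribosomal proteins. All of these lay below the 71.4% of the mitochondrial and stress list, which rests on 7 windows. A match describes the sequence and does not show a bound site.

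Vehicle replicate 3 was the highest vehicle library in 15 of the 17 pH and vessel genes and in 39 of the 58 genes of the HIF and glycolysis lists together (67.2%), where it was highest in 31.3% of all genes tested. Without that library 14 of the 17 pH and vessel genes were again higher, and 17 of 21 glycolysis genes.

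Nearly all steps from glucose entry to lactate rose. Of 21 measured genes 17 rose and 1 fell, with a median log2 fold change of 0.62. SLC2A1, the glucose transporter GLUT1, was at 581, 569 and 597 CPM in the vehicle and at 1153, 1108 and 1070 CPM at the high dose. HK1, a hexokinase, rose by 1.82 ± 0.17 and PFKP, the platelet form of phosphofructokinase, by 1.48 ± 0.10. ALDOA, an aldolase, was at 1060, 1037 and 1120 CPM and rose to 2225, 1989 and 2012 CPM, and LDHA, which makes lactate, rose by 0.62 ± 0.05. No library with the extract fell within the vehicle range for SLC2A1 or ALDOA. The other forms of phosphofructokinase were not called (PFKL 0.07, PFKM -0.28), nor was the glycogen synthase GYS1 (0.05). PGM1, which links glycogen to glycolysis, fell by 0.28 while GBE1, the glycogen branching enzyme, rose by 0.87. Of 16 genes of gluconeogenesis and FOXO targets, 8 rose and 4 fell, beside 24.3% higher and 23.6% lower over all genes. Without replicate 1 of the high dose, without vehicle replicate 3 or by DESeq2, 2 of them fell. TRIB1 (0.91) and G6PC1 (0.59), which releases free glucose, rose, and PCK1, the carboxykinase of glucose synthesis, was not called (0.04).

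**Figure D3:**
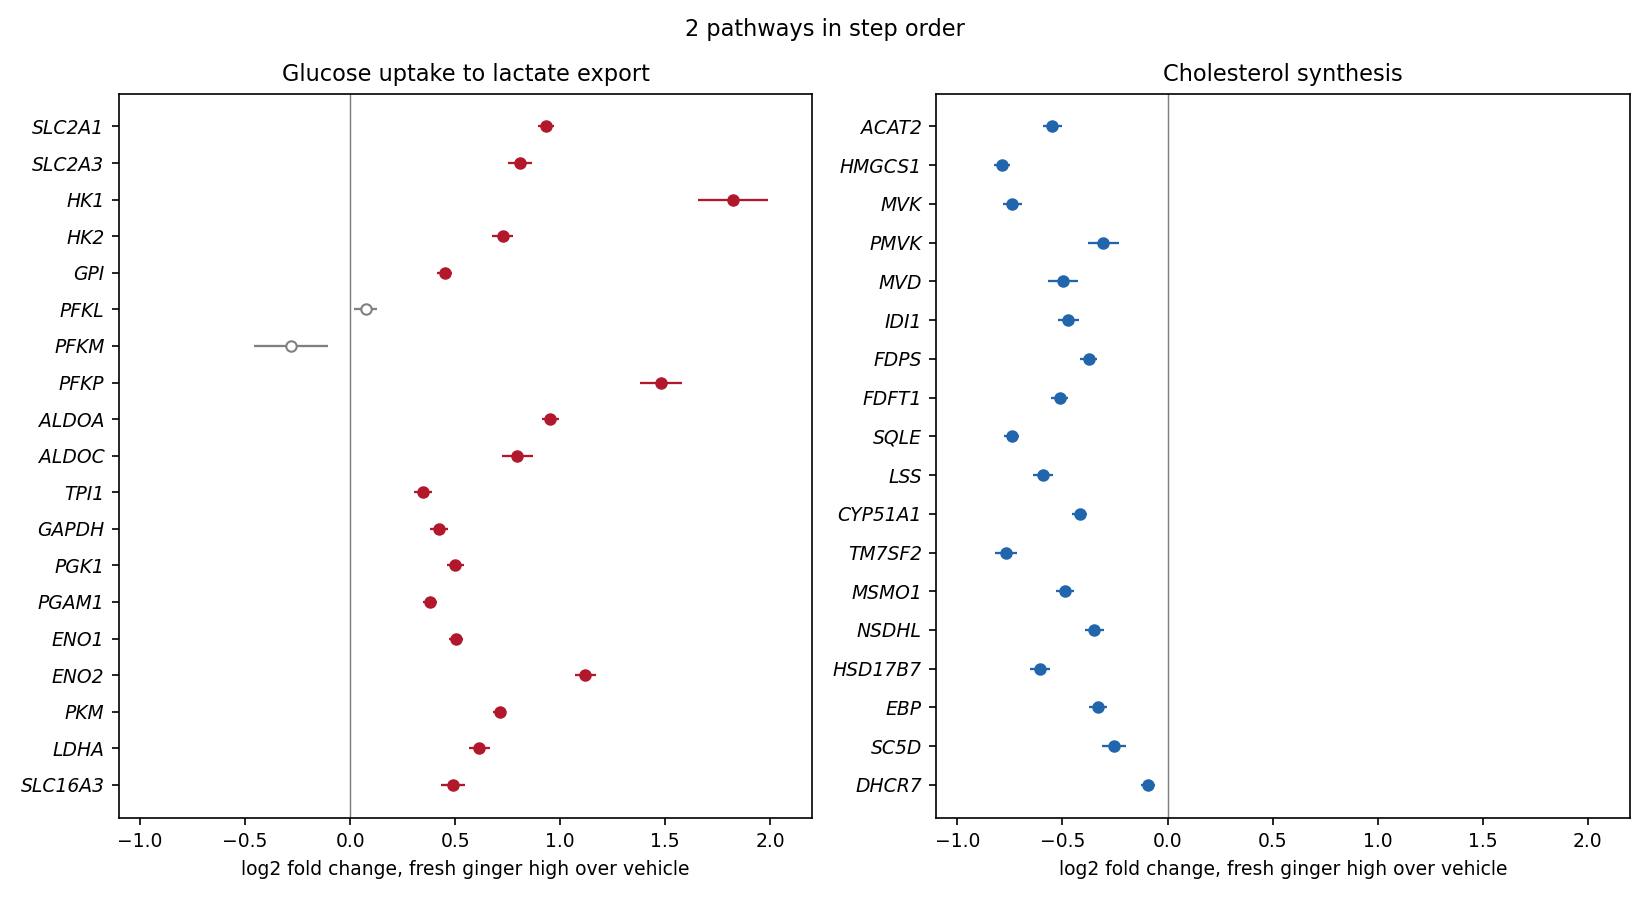
Log2 fold change of fresh ginger 500 µg/mL over vehicle (x axis, bars are the SE of the edgeR fit) for genes in the order of the pathway (y axis, from the top), glucose uptake to lactate export from SLC2A1 to SLC16A3 and cholesterol synthesis from ACAT2 to DHCR7, with called genes filled and others open. Most glycolysis genes lie to the right of 0 and each cholesterol synthesis gene shown lies to the left.

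Immediate early genes, which answer growth factor and stress kinases within minutes, stood high after 24 h. Of 20 measured genes of the AP-1 and EGR families and their kin, 19 rose, with a median log2 fold change of 1.38, and 15 of them rose at least 2-fold. FOS was at 0.494, 0.67 and 0.747 CPM in the vehicle and at 10.4, 9.07 and 9.11 CPM at the high dose. FOSB, its paralog, went from 0.494, 0.558 and 0.393 CPM to 5.84, 4.55 and 5.73 CPM. EGR1 rose from 12.7, 11.6 and 11.9 CPM to 64.2, 61.0 and 58.5 CPM. In that order the log2 fold changes were 3.89 ± 0.19, 3.46 ± 0.24 and 2.35 ± 0.08. ATF3 (2.07 ± 0.09), JUN (1.48 ± 0.06) and ARC (3.16 ± 0.53, from 0.066 CPM) also rose, and SRF, the factor that switches many of them on, was not called (0.02). Replicate 1 of the high dose was the highest of its group in 18 of these 20 genes, against 5658 of all 13945 genes. Leaving it out gave 18 of 19 tested genes higher. EGR3 (1.73 ± 0.40), counted among the 19 that rose, passed the filter on low counts only with a library of the high dose counted, so its rise is no separate support.

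ERK feedback genes and ligands of the EGF receptor moved the same way. Of 21 measured, 17 rose and 1, the transcription factor gene ETV4, fell by 0.10. That fall was not called with replicate 2 or 3 of either the high dose or the vehicle left out (-0.07 to -0.10, edgeR adjusted p = 0.0566 to 0.15). HBEGF, a ligand, was at 2.39, 2.49 and 2.67 CPM in the vehicle and at 8.54, 8.46 and 9.3 CPM with the extract. DUSP5 (1.77 ± 0.09), DUSP8 (1.54) and DUSP1 (1.53 ± 0.09), phosphatases that switch off MAP kinases, rose, as did SPRY4 (1.42), EREG (1.32), AREG (1.01) and EGFR itself (0.89). YAP targets were mixed, with 8 of 16 higher and 4 lower, beside 24.3% higher and 23.6% lower over all genes. CCN1, a matrix protein gene, rose by 1.91 ± 0.06 and AXL, a receptor kinase, by 1.29, whereas CCN2 was not called (0.12) and AMOT fell by 0.88. CCN2 was called without replicate 3 of the high dose (0.18, edgeR adjusted p = 0.0471).

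Of 27 listed chemokine and NF-kB target genes 15 passed the filter on low counts, and 11 of these rose, with a median of 0.44. CCL20, which draws CCR6-bearing lymphocytes, was at 21.7, 21.4 and 24.4 CPM in the vehicle and at 105, 116 and 119 CPM at the high dose. The fold was 5.03 (log2 fold change 2.33 ± 0.08, edgeR adjusted p = 7.85e-27). CXCL8 rose by 1.40 ± 0.18, BIRC3, an inhibitor of apoptosis, by 1.51 ± 0.13 and RELB and NFKB2, subunits of the noncanonical pathway, by 1.14 and 0.93. NFKB1 (-0.05) and BCL3 (0.17) were not called. Genes of the interferon response were called in shares near those over all genes (24.3% higher and 23.6% lower), with 5 of 20 higher and 5 lower. Replicate 1 of the high dose was the highest of its group in 16 of these 20. ISG20 rose by 1.08 and IFIT1 fell by 1.1. LYZ, counted here as a leukocyte marker, rose from 1370, 1292 and 1319 CPM to 2010, 2288 and 2322 CPM, while PTPRC and CD3E had no counts.

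Genes of the p53 response rose in 18 of 26 measured, fell in 4 and were not called in 4, with a median of 0.31. GDF15, a stress hormone of the TGF-beta family, rose from 164, 156 and 177 CPM to 882, 730 and 749 CPM. CDKN1A, which encodes the cyclin-dependent kinase inhibitor p21, was at 103, 101 and 102 CPM in the vehicle and at 228, 218 and 226 CPM at the high dose. The extract libraries lay well clear of the vehicle for both genes, with log2 fold changes of 2.25 ± 0.06 and 1.13 ± 0.03. At the low dose CDKN1A averaged 86.2 CPM and at the medium dose 112 CPM. PLK3 (1.19), PMAIP1 (1.09) and BBC3 (0.87), of which the last pair encode the killer proteins NOXA and PUMA, rose as well. MDM2, the p53 inhibitor, rose by 0.42. Without vehicle replicate 3, 16 rose and 1 fell, and without replicate 1 of the high dose 2 fell. BAX was not called (0.02). Among 18 other regulators of cell death 10 rose and 4 fell, beside 24.3% higher and 23.6% lower over all genes. MCL1, which protects against apoptosis, rose by 1.04 ± 0.03 and BMF fell by 0.79.

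All 25 measured mitosis genes fell, with a median log2 fold change of -0.47, and no fall reached 2-fold. KIF20A, a kinesin of the cleavage furrow, was at 75.0, 76.0 and 79.1 CPM in the vehicle and at 42.6, 42.4 and 40.6 CPM at the high dose. CCNB2, a mitotic cyclin, went from 73.2, 70.3 and 72.3 CPM to 41.9, 47.1 and 47.5 CPM. PLK1, a mitotic kinase, was at 274, 268 and 283 CPM and at 190, 181 and 171 CPM. All 3 genes had separate groups, with log2 fold changes of -0.87 ± 0.04, -0.66 ± 0.05 and -0.61 ± 0.04. MKI67, the proliferation marker, fell by 0.46 ± 0.07. With replicate 1 of the high dose or vehicle replicate 3 left out, 24 of 25 were lower.

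The promoters of KIF20A (chr5:138178862-138179161, plus strand) and CCNB2 (chr15:59104896-59105195, plus strand) are printed as examples of mitotic genes that fell together, in the same window and source as above. Capitals mark the CCAAT box and the cell cycle homology letters TTTGAA, each on either strand (ATTGG and TTCAAA on the strand shown).
KIF20A: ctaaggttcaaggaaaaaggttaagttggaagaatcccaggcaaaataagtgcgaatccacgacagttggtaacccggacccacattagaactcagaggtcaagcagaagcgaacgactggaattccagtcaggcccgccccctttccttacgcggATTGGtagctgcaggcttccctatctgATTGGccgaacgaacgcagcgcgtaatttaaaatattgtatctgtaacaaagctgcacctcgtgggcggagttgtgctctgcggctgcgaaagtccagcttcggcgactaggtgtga
CCNB2: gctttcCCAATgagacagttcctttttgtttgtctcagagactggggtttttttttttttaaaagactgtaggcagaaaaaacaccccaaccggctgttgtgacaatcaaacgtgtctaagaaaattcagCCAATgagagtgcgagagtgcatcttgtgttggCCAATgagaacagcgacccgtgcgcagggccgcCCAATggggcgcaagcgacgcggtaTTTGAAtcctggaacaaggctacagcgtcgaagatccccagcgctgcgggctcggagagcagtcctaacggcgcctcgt
KIF20A has 2 matches of CCAAT and CCNB2 has 4, beside 1 of TTTGAA. Among the 21 mitosis genes with a window, 17 hold CCAAT (81.0%) and 12 hold TTTGAA (57.1%), against 35.7% and 15.4% of all windows. The CCAAT share was as high or higher for histones (93.3%), chaperones of the endoplasmic reticulum (89.5%) and cholesterol genes (83.3%), and for TTTGAA the share of the bile acid list came next after mitosis, at 38.5%.

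DNA replication genes fell in 24 of 30 measured, with a median of -0.22. PRIM1, the primase, fell by 0.52 ± 0.06 and the helicase subunits MCM2 and MCM5 by 0.45 and 0.42. RRM2, the small subunit of ribonucleotide reductase, rose from 324, 333 and 321 CPM to 376, 408 and 404 CPM. Of 19 genes of G1 cyclins, their kinases and inhibitors, 11 fell and 4 rose. CDKN2C fell by 0.89 ± 0.06 and CCND2 by 0.74, whereas CDKN2B rose by 0.85 and CCND1 was not called (-0.03). Without vehicle replicate 3 CCND2 was not called (-0.66, edgeR adjusted p = 0.0561).

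Genes of the amino acid and integrated stress response rose in 18 of 28 measured and fell in 4. SLC7A11, the cystine importer, was at 48.1, 52.1 and 49.6 CPM in the vehicle and at 167, 178 and 184 CPM with the extract. PPP1R15A, which restores translation after stress, rose by 1.72 ± 0.07, VLDLR by 1.19 and ASNS, asparagine synthetase, by 0.73 ± 0.05. DDIT3, which encodes CHOP, had a log2 fold change of 0.08 (edgeR adjusted p = 0.428), and PHGDH, PSAT1 and PSPH of serine synthesis fell by 0.23, 0.24 and 0.24. Cytosolic tRNA synthetase genes rose in 10 of 20 measured, by at most 0.50 (CARS1). Chaperones of the endoplasmic reticulum had 6 of 20 higher and 8 lower, where 24.3% of all genes were called higher and 23.6% lower. HSPA5 was lower by 0.19, and 3 of the 20 were higher without vehicle replicate 3. Cytosolic heat shock genes fell in 11 of 20 and rose in 3. HSP90AA1 fell by 0.40 and HSPB1 by 0.48, and HSPA1A and HSPA1B, whose reads are hard to tell apart, fell by 0.43 and 0.36. HSPB8 had the largest called change of this list, whose log2 fold changes ran from -0.48 to 0.93.

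NRF2 target genes rose in 24 of 29 measured and fell in 2, with a median of 0.36. AKR1B10, an aldo-keto reductase, was at 95, 93.3 and 98.9 CPM in the vehicle and at 348, 347 and 369 CPM at the high dose. GCLM (1.07 ± 0.06) and GCLC (1.03), subunits of the enzyme that starts glutathione synthesis, TXNRD1 (0.93) and SRXN1 (0.98) rose. NQO1 rose from 685, 661 and 663 CPM to 877, 956 and 966 CPM. For these genes the libraries did not overlap, but HMOX1, heme oxygenase, was at 58.8, 57.1 and 61.5 CPM against 70.7, 59.2 and 62.2 CPM and was not called (edgeR adjusted p = 0.0616). HMOX1 was called without replicate 2 of the high dose (0.17, edgeR adjusted p = 0.00973) or vehicle replicate 3 (0.14, 0.0385). SQSTM1, which encodes the autophagy receptor p62 and is a NRF2 target too, rose from 262, 257 and 255 CPM to 686, 616 and 633 CPM. It led 18 of 30 measured autophagy and lysosome genes that rose, among them GABARAPL1 (0.99), GLA (0.71) and NPC1 (0.68). Replicate 1 of the high dose was the highest of its group in 20 of these 30 genes, and 16 rose without it. TFEB, the regulator of lysosomal genes, fell by 0.50.

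CYP1A1, the classic AhR target that oxidizes aromatic hydrocarbons, was at 12.7, 10.8 and 14.0 CPM in the vehicle and at 52.2, 47.4 and 48.4 CPM at the high dose, a fold of 3.95 (edgeR adjusted p = 5.26e-22). The low and medium doses had means of 12.7 and 16.3 CPM. Of 8 measured AhR targets 3 rose. AHR itself rose by 0.45, while AHRR (0.30) and TIPARP (-0.11), which also respond to the receptor, were not called. Genes of several conjugating enzymes fell. GSTA1, a glutathione transferase, went from 79.0, 76.8 and 82.9 CPM to 28.4, 28.4 and 28.7 CPM, and its close paralog GSTA2 fell by 1.5 ± 0.10. SULT2A1 (-0.71) and UGT2B10 (-1.03), a sulfotransferase and a glucuronosyltransferase, fell. CYP3A5 rose by 0.88 and the xenobiotic receptor NR1I2 by 0.42. Over the drug metabolism list 5 of 17 measured genes rose and 6 fell, with 8 more below the filter on low counts. Over all genes 24.3% were called higher and 23.6% lower.

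Metallothioneins, small proteins that bind zinc and copper, fell in most cases. Of 13 measured metallothionein and zinc transporter genes 9 fell and 3 rose, with a median of -0.72. MT1F was at 62.1, 54.1 and 63.0 CPM in the vehicle and at 9.41, 8.18 and 6.95 CPM at the high dose (log2 fold change -2.87 ± 0.09, edgeR adjusted p = 1.96e-28). MT1G went from 146, 126 and 143 CPM to 25.0, 23.9 and 28.4 CPM, and MT1X from 68.9, 63.2 and 72.6 CPM to 30.0, 25.0 and 29.5 CPM. MT2A was at 514, 436 and 501 CPM and at 493, 489 and 551 CPM, with overlapping groups and a log2 fold change of 0.08 that was not called. These genes lie together on chromosome 16, MT2A at 56608199 to 56609497, MT1F at 56657694 to 56660698 and MT1X at 56682424 to 56684196 (GRCh38). MT2A had a mean of 376 CPM at the low dose and 177 CPM at the medium dose, so its medium dose lay below both others, while MT1F at the medium dose (13.7 CPM) lay between them. MT1E fell by 1.3 and MT1A by 0.77. Reads of close metallothionein copies are shared out by the counting, so these falls are not fully separate measurements. The zinc importer SLC39A10 rose by 1.44 ± 0.06 and the exporter SLC30A1, a target of the zinc sensor MTF1, fell by 0.69 ± 0.04.

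Cholesterol synthesis genes fell together. Of 24 measured genes of synthesis and uptake 23 fell, with a median of -0.49. HMGCS1, which makes HMG-CoA, was at 479, 484 and 463 CPM in the vehicle and at 259, 276 and 290 CPM at the high dose, with the groups apart. SQLE, squalene epoxidase, fell by 0.74, and MVK, mevalonate kinase, and TM7SF2, a sterol reductase, by 0.74 and 0.77.

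Fatty acid and triglyceride synthesis genes fell in 17 of 23 and rose in 2. GPAM, the first acyltransferase of triglyceride synthesis, went from 220, 234 and 212 CPM to 89.9, 103 and 101 CPM, and DGAT1 and DGAT2, the last step, fell by 0.93 and 0.75. FASN fell by 0.24. PLIN2, the coat protein of lipid droplets, rose from 126, 120 and 134 CPM to 415, 415 and 418 CPM. Fatty acid oxidation was mixed, with 5 of 20 higher and 8 lower, beside 24.3% higher and 23.6% lower over all genes. CPT1A, the gate into mitochondria, rose by 0.89 ± 0.06 and VNN1, a PPARA target, by 1.77, while EHHADH of the peroxisome fell by 0.69.

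Genes of liver functions fell for the most part. NR1H4, the bile acid receptor FXR, was at 75.5, 72.4 and 74.1 CPM in the vehicle and at 20.2, 22.2 and 23.9 CPM at the high dose, a log2 fold change of -1.74 ± 0.05. Its target NR0B2, the repressor SHP, was not lower but rose by 0.77 ± 0.07. AKR1D1 (-1.25), CYP8B1 (-0.79) and KLB (-0.80), which take part in bile acid synthesis or its feedback, fell, and 8 of 12 measured genes of this list fell while 3 rose. Of 19 hepatocyte transcription factors 11 fell and 4 rose. CEBPA was lower by 0.83 ± 0.12, FOXA1 by 0.80 and HNF4A by 0.42 ± 0.04. FOXA2 was not called (0.01).

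Genes of secreted plasma proteins mostly fell too. Fibrinogen, the clot protein, is built from 3 chains whose genes adjoin on chromosome 4, and all 3 fell. FGA was at 1016, 943 and 1029 CPM in the vehicle and at 303, 339 and 329 CPM with the extract, and FGG and FGB fell by 1.49 ± 0.07 and 1.14 ± 0.06. KNG1, kininogen, fell by 1.91 ± 0.14. In the coagulation, fibrinolysis and complement list 25 of 32 fell (median -0.44) and PLAU, the urokinase gene, rose by 0.98. Of 31 carrier proteins and apolipoproteins 20 fell and 6 rose. HP, haptoglobin, went from 190, 191 and 196 CPM to 75.0, 77.3 and 71.4 CPM. ALB, albumin, was at 10390, 10030 and 10550 CPM and at 8609, 8919 and 9287 CPM, a far smaller fall of 0.21. AHSG rose by 0.34 and APOB was not called (-0.01). Vehicle replicate 3 was the highest vehicle library in 21 of the 31 and in 20 of the 32 genes of these lists, and 20 and 25 were lower without it. In the iron list 5 of 18 rose and 7 fell, where 24.3% of all genes were called higher and 23.6% lower. HAMP, the iron hormone hepcidin, fell from 69.9, 61.4 and 64.0 CPM to 28.0, 30.8 and 32.4 CPM, and CP, the ferroxidase ceruloplasmin, rose by 1.46 ± 0.07. The transferrin receptor TFRC rose by 0.57 and HPX, which binds heme, fell by 1.01.

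Smaller groups moved as follows, where 24.3% of all genes tested were called higher and 23.6% lower. Cytoskeleton and keratin genes rose in 15 of 20, led by the tubulin genes TUBB6 (1.37) and TUBA4A (0.97). Replicate 1 of the high dose was the highest of its group in 16 of these 20 genes. Among 19 junction and adhesion genes 7 rose and 9 fell. TJP3, a tight junction scaffold, fell by 1.67 ± 0.11 and CGN, cingulin, by 1.00, and ITGA2, a collagen receptor subunit, rose from 74.7, 81.8 and 74.8 CPM to 278, 307 and 307 CPM. In the clock list 4 of 17 rose and 7 fell. BHLHE40, a repressor that HIF also raises, rose by 2.02 ± 0.09 and DBP, a clock output factor, fell by 1.41 ± 0.16. Of 11 measured genes on a list of solute channels, AQP3 among them, and of sensors for gingerol-type ligands, 6 rose and 2 fell. TRPV1, the receptor through which gingerols and capsaicin are pungent, fell by 0.27 from a mean of 12.5 CPM, and its relative TRPV2 rose by 1.12. Without replicate 3 of the high dose TRPV1 was not called (-0.22, edgeR adjusted p = 0.0967). CYP24A1, which breaks down vitamin D, rose by 1.12 in a list of vitamin D, retinoid and steroid genes with 4 of 11 higher and 4 lower. In the TGF-beta list 6 of 14 rose and 2 fell, or 1 without replicate 1 of the high dose or vehicle replicate 3. Other large falls were in ACSM2A (-1.90 ± 0.14) and its paralog ACSM2B, acyl-CoA synthetase genes whose reads are shared, and in SLC22A7, an organic anion transporter, KANK4, SSC4D and MAB21L4 (-1.61, -1.53, -1.48 and -1.45).

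Ribosomal proteins, the respiratory chain and histones held a smaller share of called genes than the 47.9% over all genes. Ribosomal protein genes were called in 4 of 40 measured, of which 3 rose, and genes of the mitochondrial DNA in 3 of 13. In the nuclear respiratory chain 2 of 32 rose and 8 fell, all by less than 0.22 on the log2 scale, and 5 fell without replicate 1 of the high dose or vehicle replicate 3. Histones with their variants fell in 4 of 12. Ribosome biogenesis genes rose in 7 of 24 and fell in 5, with 4 higher and 7 lower without replicate 1 of the high dose, which was the highest of its group in 10 of the 13 mitochondrial DNA genes. Without replicate 1 of the high dose edgeR called 0 genes of the ribosomal proteins (4 at an unadjusted p under 0.05) and 0 of the mitochondrial DNA (2 unadjusted), where DESeq2 on all libraries called 3 and 2.

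**Figure D4:**
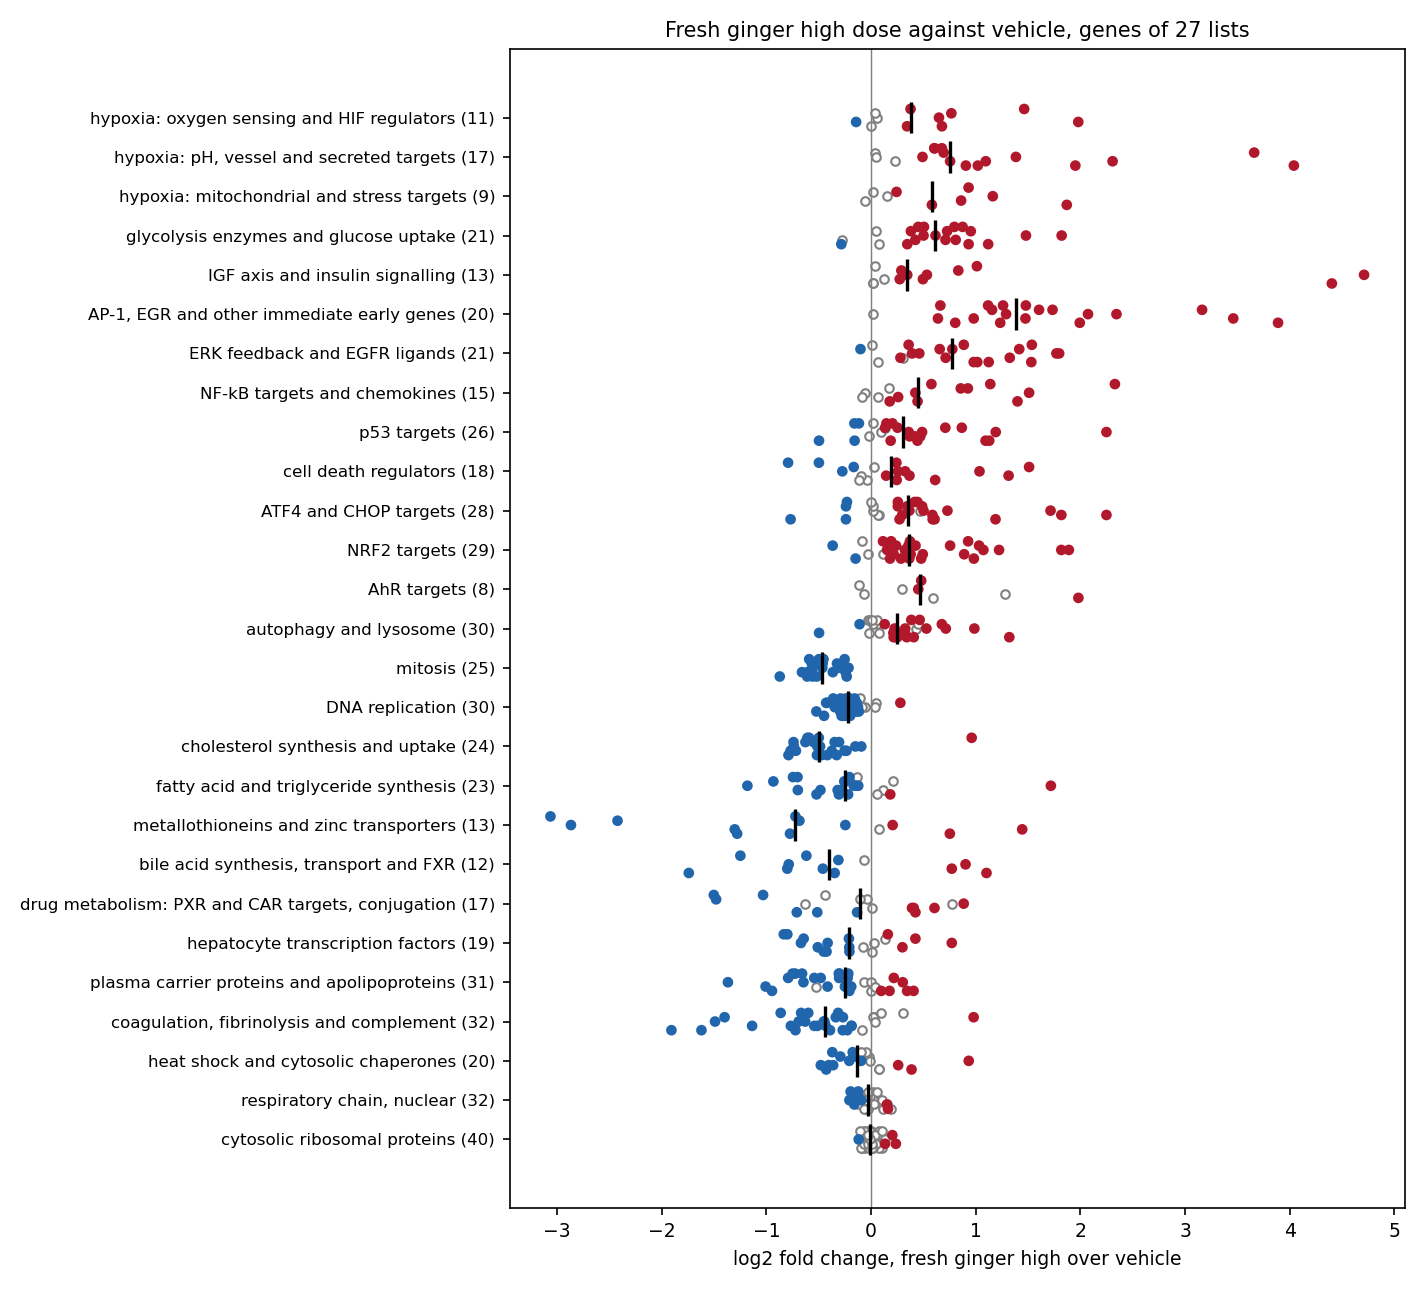
Log2 fold change of fresh ginger 500 µg/mL over vehicle (x axis) for the measured genes of 27 lists (rows, number tested in parentheses), with red points called higher, blue called lower and open points not called, and a bar at the list's median. Immediate early genes have their median at 1.38, mitosis genes at -0.47 and coagulation genes at -0.44, where all genes have 0.003.

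The same high-dose libraries were set against the low dose of the same extract, whose names share their prefix. The test called 6635 of 13945 genes (47.6%), 3251 higher (23.3%) and 3384 lower (24.3%), and 483 (3.46%) at 2-fold or more. All genes had a median log2 fold change of -0.011. FOS (4.10 ± 0.19), IGFBP1 (3.51 ± 0.11), LCN15 (3.43), FOSB (3.24) and AQP3 (3.13) were among the largest rises between the low and the high dose. MT1F (-2.72 ± 0.09), MT1G (-2.07), KNG1 (-1.97), ACSM2A (-1.91) and NR1H4 (-1.83) led the falls. By list, 25 of 25 mitosis genes were lower at the high than at the low dose, 19 of 20 immediate early genes were higher, and 23 of 24 cholesterol genes were lower. Of the HIF targets, 14 of 17 pH and vessel genes and 17 of 21 glycolysis genes were higher. CA9 differed by 1.95 ± 0.27 between these doses, since the low dose already averaged 1.86 CPM against 0.433 CPM in the vehicle. CA9 at the medium dose averaged 1.70 CPM, close to the low dose. PDK1 climbed over vehicle, low, medium and high dose through means of 23.6, 33.9, 44.7 and 52.7 CPM. CCL20 had 22.5, 30.2, 59.1 and 113 CPM in that order. For other genes the means at the low and medium doses lay nearer to the vehicle than to the high dose, FOS at 0.553 and 1.2 CPM, CDKN1A at 86.2 and 112 CPM and KIF20A at 77.0 and 69.0 CPM.

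Fresh and dried ginger at the same dose of 500 µg/mL differed in 3273 genes (23.5%), of which 1846 (13.2%) were higher with fresh and 1427 (10.2%) were lower. A 2-fold difference was called for 153 genes (1.1%), and the median over all genes was 0.002. Dried ginger had 2 libraries, with 23165220 and 23435342 counts, and without the first or the second of them 2170 and 2021 genes were called. Fitted on the libraries of both extracts alone, the test called 1735. Both extracts share the vehicle, so their effects against it are given side by side and only this direct difference was tested.

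Immediate early, NF-kB and p53 genes were mostly higher with fresh ginger. FOS was at 1.31 and 1.40 CPM with dried ginger and at 9.07 to 10.4 CPM with fresh, and FOSB at 0.848 and 0.339 CPM against 4.55 to 5.84 CPM. Of 20 immediate early genes 19 were higher with fresh ginger (median difference 0.64). EGR1 differed by 1.09 ± 0.08 and ATF3 by 1.43 ± 0.10, and DUSP5, at 15.0 and 13.6 CPM with dried ginger, was not called (0.01 ± 0.09). CCL20 was at 30.2 and 31.3 CPM with dried ginger, and 12 of 15 NF-kB targets were higher with fresh. CDKN1A was at 112 CPM in both dried ginger libraries and at 101 to 103 CPM in the vehicle, and fresh differed from dried by 0.99 ± 0.04. Of 26 p53 targets 20 were higher with fresh ginger, BTG2 by 1.29 and DDB2 by 0.97.

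Glycolysis genes and the HIF targets for pH control and vessels were mostly higher with fresh ginger too. CA9 was at 1.44 and 0.932 CPM with dried ginger (difference 2.59 ± 0.34), SLC2A3, the glucose transporter GLUT3, at 153 and 159 CPM against 384 to 391 CPM, and 18 of 21 glycolysis genes and 13 of 17 pH and vessel genes were higher with fresh. In the oxygen sensing list 6 of 11 were higher (median 0.18), and among mitochondrial and stress targets 4 of 9 were higher and 1 lower (median 0.14). CA12 differed the other way, by -0.66 ± 0.24 for fresh over dried ginger, but edgeR's adjusted p of 0.0398 became 0.0818 to 0.217 without replicate 1 or 3 of fresh ginger or either dried ginger library, and 0.233 by DESeq2. Mitosis genes, which fell with fresh ginger against the vehicle, stood still lower with dried ginger. KIF20A was at 31.3 and 29.1 CPM with dried ginger, and 24 of 25 mitosis genes were higher with fresh, by a median of 0.38.

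Electrophile and AhR genes went the other way. CYP1A1 was at 245 and 227 CPM with dried ginger, against 47.4 to 52.2 CPM with fresh, a difference of -2.26 ± 0.08 (edgeR adjusted p = 2.04e-25). Of 29 NRF2 targets 24 were lower with fresh ginger than with dried, with a median of -0.31. AKR1B10 was at 488 and 525 CPM and NQO1 at 1257 and 1269 CPM with dried ginger, both above every fresh ginger library. PTGR1, which reduces electrophilic enones, was at 96.7 and 103 CPM with dried ginger and at 46.5 to 49.3 CPM with fresh. AQP3 was at 63.7 and 62.7 CPM with dried ginger (difference -0.88 ± 0.07). Of 20 cytosolic tRNA synthetases 12 were lower with fresh ginger, and of 30 autophagy and lysosome genes 13 were lower and 2 higher.

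GSTA1 and UBD set the extracts apart in another way. GSTA1 was at 70.5 and 69.4 CPM with dried ginger, below every vehicle library, and GSTA2 at 11.3 and 12.2 CPM. Both fell with fresh ginger against the vehicle. UBD, a ubiquitin-like protein induced by cytokines, was at 5.3 and 5.63 CPM with dried ginger, at 19.5 to 22.5 CPM in the vehicle and at 28.5 to 29.6 CPM with fresh ginger. With dried ginger CHST15 was at 9.92 and 10.6 CPM, above its vehicle mean, and TNS1, a focal adhesion protein, at 7.00 and 5.68 CPM. Dried ginger itself was not tested against the vehicle. For several of the largest changes against the vehicle, the difference between the extracts was not called. MT1F differed by -0.09 ± 0.14, FGA by 0.03 ± 0.05, KNG1 by 0.13 ± 0.21, PLIN2 by 0.07 ± 0.04 and SLC39A10 by 0.08 ± 0.06. FGA stood at 319 and 317 CPM with dried ginger and at 303 to 339 CPM with fresh.

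**Figure D5:**
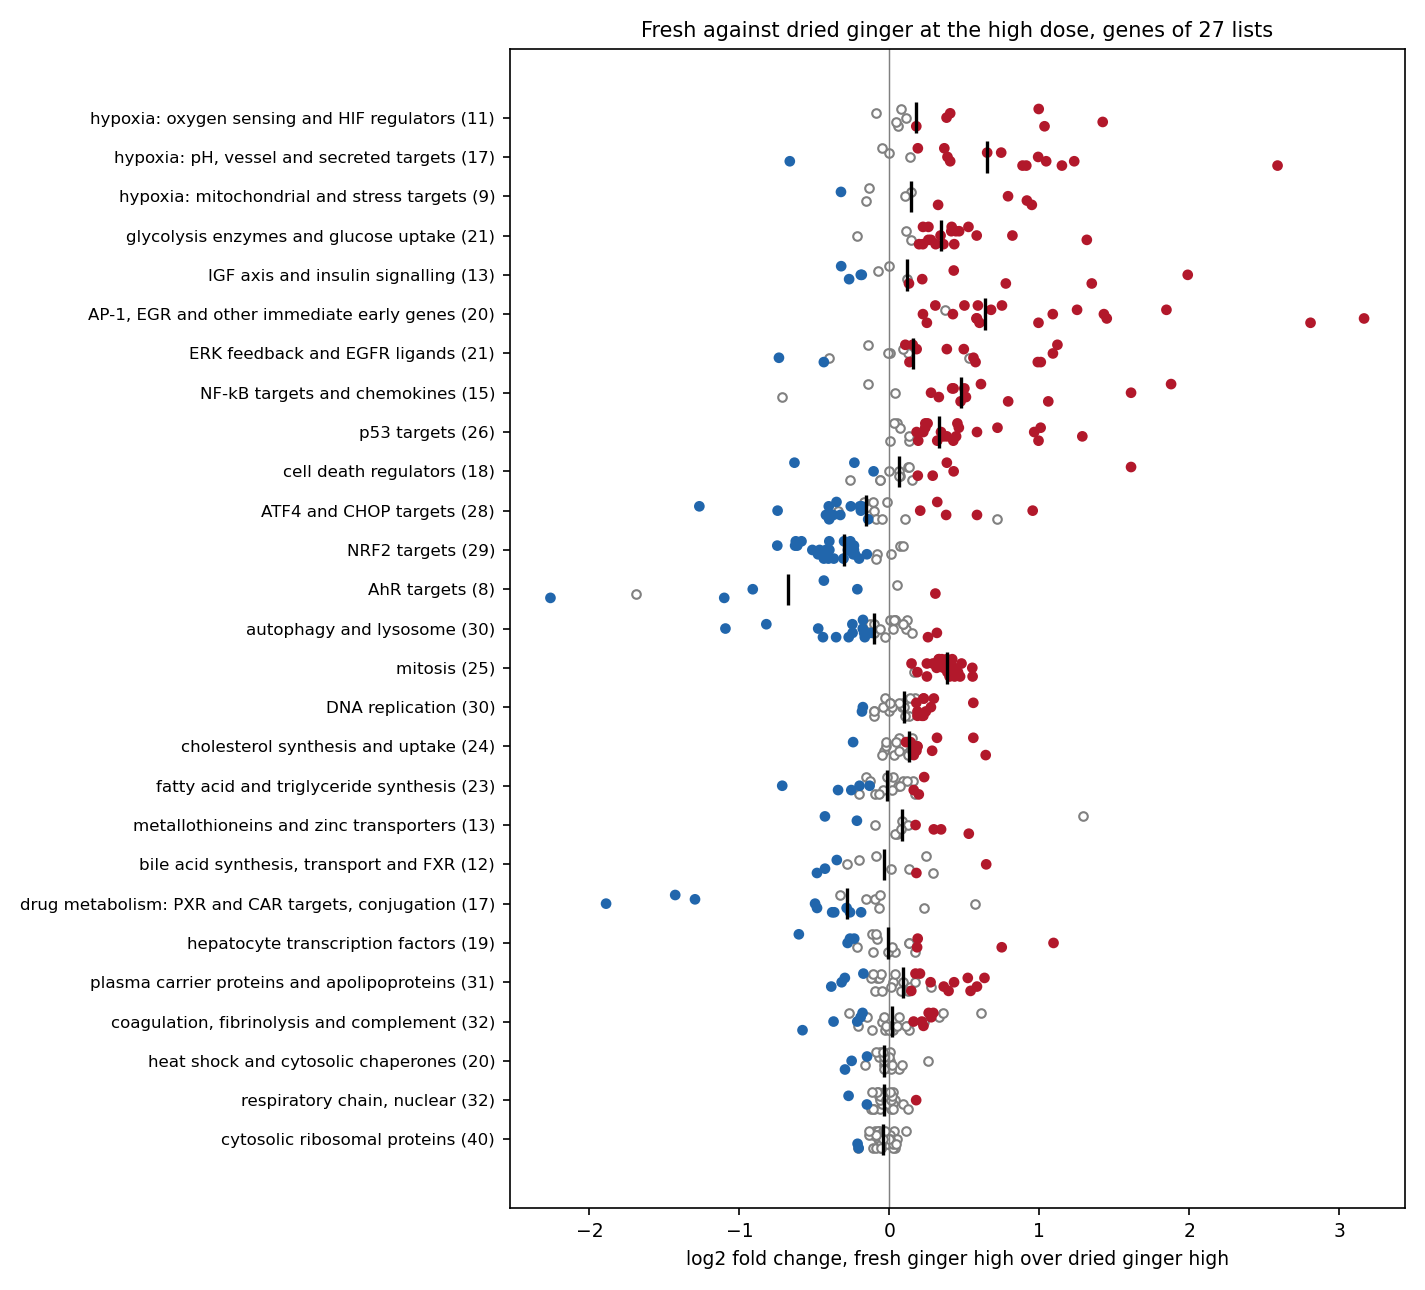
Log2 difference of fresh ginger over dried ginger, both at 500 µg/mL (x axis), for the measured genes of 27 lists (rows, number tested in parentheses), with red points called higher with fresh, blue called lower, open points not called and a bar at the median. Mitosis genes lie to the right with a median of 0.38 and NRF2 targets to the left with a median of -0.31.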

How the data were processed

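RNA of HepG2 cells was sequenced as 100 bp pairs on an MGIseq system from directional libraries, with an RNA integrity number above 7, per the labels' protocols. The submitters' processing notes name FastQC 0.11.9, Trim Galore 0.6.5, the aligner STAR 2.7.3a, the counting tool RSEM 1.3.3 and the build GRCh38. The deposited values were expected counts per gene, with no scaling found in them, and 75.3% of nonzero values were whole. RSEM shares reads among genes they fit alike, so close copies (MT1, GSTA, ACSM2, AKR1C, HSPA1, C4) are uncertain. Of 60675 identifiers 57055 received a symbol, 497 of them from GENCODE 29. The table held 209 further columns that the labels did not map, and they were not used here.

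Counts were rounded, and the 13945 genes that reached 1 CPM in 3 or more libraries were scaled by TMM and fitted by edgeR 4.0.16 (R 4.3.3) with a mean for each of 24 groups over 58 libraries. The quasi-likelihood test was two-sided, with a threshold of 0.05 on p after Benjamini-Hochberg adjustment over all genes. Fold changes and their SE come from this fit, and CPM values use the TMM library sizes. The common dispersion gave a coefficient of variation of 4.25% between replicates. TMM factors were 0.981 to 0.992 at the high dose and 1.011 to 1.019 in the vehicle. The script was tested on simulated data.

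The comparison, the 44 gene lists and the rule for named genes were chosen with earlier results of these data known. The rule took the 15 largest called rises and falls against the vehicle among genes with a symbol whose higher group averaged 5 CPM or more and whose groups did not overlap, up to 5 called members of each list, and a fixed panel, and took the 6 largest each way in the other comparisons. Other genes named in the text were chosen after their values were seen. A few genes picked by the rule are not reported here. Lists held 955 genes, of which 852 passed the filter and are called measured, and 24 stand on more than 1 list. No set test was run. Alternatives were RLE scaling, no filter, a filter at 5 CPM, DESeq2 1.42.0, only the groups compared, a replicate block and leaving out each library. Promoter windows were searched on both strands for the letters given in the text and for the metal response core (TGCGCNC in 20.0% of windows and TGCACNC in 11.9%), the AP-1 site (TGANTCA, 7.8%), the cAMP response element (TGACGTCA, 2.0%), the forkhead core (TGTTTAC, 3.4%), the insulin response core (CAAAACA, 4.9%) and the dioxin response core (TTGCGTG, 1.1%), which are not reported further. IGFBP1, MT1F and MT1G had no window in the table.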

Additional observations from a re-analysis of the deposited data

Results flagged for a closer look

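Fresh and dried ginger at 500 µg/mL were each compared with the same vehicle, and the test of the difference between them called 3273 genes. The largest called differences are given here as log2 differences of fresh over dried ginger. Higher with fresh ginger were FOSB (3.17), FOS (2.81), CA9 (2.59), UBD (2.41), CHST15 (2.15) and TNS1 (2.00). Lower with fresh ginger were CYP1A1 (-2.26), IGFN1 (-1.66), GSTA2 (-1.43), SMG1P4 (-1.41), VGF (-1.35) and GSTA1 (-1.30). SMG1P4 is a pseudogene whose reads can be shared with its parent gene, and its vehicle libraries ranged from 1.89 to 4.28 CPM. IGFN1 was at 10.0 and 12 CPM with dried ginger, 4.25, 3.52 and 2.67 CPM with fresh and 1.07 CPM on average in the vehicle. VGF, a neuroendocrine secreted protein gene, was at 13.6 CPM in both dried ginger libraries and at 6.63, 4.62 and 4.71 CPM with fresh.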

How the results depend on the processing

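No gene called both in the test reported above and in a setting run had opposite signs in them. Genes that lost their call were checked for sign only if the rule or the text names them, and none of those reversed. Against the vehicle the test called 6679 genes, 6691 with RLE scaling, 6381 with no filter, 6001 with the filter at 5 CPM, 5780 with only the groups compared, 6132 by DESeq2 and 6001 to 6183 with a library left out. Against the low dose it called 6635, and 5824 to 6628 in the same settings. Against dried ginger it called 3273, 1735 with only the groups compared and 2021 to 3027 with a library left out (2170 and 2021 without dried ginger replicates 1 and 2). The lists of ribosomal proteins and of the mitochondrial DNA held 4 and 3 called genes, 0 and 0 without replicate 1 of the high dose, and 2 ribosomal genes without vehicle replicate 3, in counts added after seeing the data. With a replicate block the counts were 6732, 6689 and 3326. Replicates of the same number correlated by -0.097, 0.072 and -0.31 between the high dose and the vehicle, by 0.325, 0.076 and 0.181 between the high and the low dose and by 0.124 and 0.106 between fresh and dried ginger. Not every pair was above 0.1, and the labels name no shared source, so the block was kept as an alternative, although between the doses every same-number value was positive. High dose replicate 2 correlated more with low dose replicate 3 (0.135) than with its own number. Of 294 genes that the rule or the text names against the vehicle, 14 lost their call and 1 gained one without replicate 1 of the high dose. Of 298 against dried ginger, 29 lost theirs with only the groups compared. With 1 dried ginger library left, its spread was assumed to be that of the other groups. Genes under 1 CPM, such as ARC, rest on few counts.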
